A study of Mus musculus with 10 samples.

Results

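The cytosolic ribosomal protein genes are the genes for the proteins of the large and the small subunit of the ribosome that works in the cytosol. They were taken by symbol, as Rpl or Rps followed by a number and at most 1 of the letters a, x or l, together with Rplp0, Rplp1, Rplp2 and Rpsa. The rule found 83 of the 56832 genes in the count table, 51 of the large and 32 of the small subunit. No measured value entered this symbol rule, though the set was chosen with earlier results of these data known. Of the 83, 78 had enough counts to be tested, 47 of the large and 31 of the small subunit. The 5 others were Rpl10l and Rpl39l, with 0 counts in every library, and Rpl24, Rpl32l and Rps10, with at most 8 counts in any library.

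RNA was sequenced from cardiomyocytes sorted out of Sprr1a-GFP hearts, in which a green fluorescent protein reports on the injury-induced gene Sprr1a. All 5 mice had a myocardial infarction at 12 weeks of age, and their cells were collected 5 days later. Each mouse gave 1 library of GFP+ cells, labelled border zone cardiomyocytes, and 1 library of GFP- cells, labelled remote zone cardiomyocytes. Both groups therefore carried the reporter and the infarct, every title has the tag Hetz, and no uninfarcted heart was analysed here. The titles of the GFP+ libraries name DAPI-negative and DAPI-positive cells together and those of the GFP- libraries only DAPI-negative cells, so this gate and the group cannot be told apart. The mice carry the identifiers 17C1, 17C2, 21A4, 21A5 and 21A7, and the 17C and 21A series have differently worded titles, so values within each series stand beside those over all mice.

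A ribosome holds 1 copy of nearly every ribosomal protein, so cells make these proteins in matched amounts, from many short and abundant mRNAs. Many of these mRNAs begin with a C and a run of pyrimidines, the terminal oligopyrimidine or TOP tract, through which the kinase complex mTORC1 controls their translation. Heart and skeletal muscle also express Rpl3l, a paralog of Rpl3 that takes its place in the large subunit of mature muscle, while Rpl3 is the form of other cells and of growing muscle.

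The sequences of Rpl3l and Rpl3 are shown first because the comparison of these paralogs depends on reads being assigned to the right gene. The lines give the first 90 coding bases of each, 5′ to 3′, from the GENCODE M21 transcripts Rpl3l-202 and Rpl3-201 of the earlier mouse build GRCm38. Capitals mark the 21 positions where the paralogs differ.
Rpl3l: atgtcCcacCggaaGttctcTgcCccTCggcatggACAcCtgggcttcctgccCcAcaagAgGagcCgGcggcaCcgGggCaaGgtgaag
Rpl3: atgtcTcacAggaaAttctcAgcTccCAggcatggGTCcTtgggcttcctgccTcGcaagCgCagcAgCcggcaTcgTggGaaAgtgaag
Over 1209 aligned coding bases the paralogs were 74.4% identical. The longest run shared by their full transcripts was 22 bases, and these had 0 runs of 50 bases in common. The transcripts are nearly equal in length, 1375 bases for Rpl3l and 1351 for Rpl3.

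The starts of the genes are shown because the TOP tract lies there. RefSeq promoter entries of build GRCm38.p6 were matched to 61 of the 83 genes, with 73 promoters. In 31 of the 73 (42.5%) a C followed by at least 4 pyrimidines (C or T) began within 5 bases of the annotated start, on the strand of the gene, against 18.3% of all 32851 promoters. On the opposite strand the shares were 12.3% and 21.4%. The windows below run from 15 bases before to 25 bases from the start on, 5′ to 3′ on the strand of the gene, with that tract in capitals. Rps6 is the S6 kinase substrate, Rpl15 and Rpl38 were among the genes with the highest fold change, and Rps27 was among those with the lowest. In Rpl3l no such tract begins within 5 bases of either annotated start, and the upstream start is shown. The windows lie at chr4:86857343-86857382 (minus strand), chr14:18270962-18271001 (minus), chr11:114668565-114668604 (plus), chr3:90213624-90213663 (minus) and chr17:24727811-24727850 (plus), in this order.
Rps6: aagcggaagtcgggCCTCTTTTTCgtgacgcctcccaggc
Rpl15: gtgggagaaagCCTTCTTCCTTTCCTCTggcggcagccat
Rpl38: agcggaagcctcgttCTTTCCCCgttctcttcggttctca
Rps27: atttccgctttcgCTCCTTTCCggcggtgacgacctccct
Rpl3l: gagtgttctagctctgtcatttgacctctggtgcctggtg
These are matches of letters to annotated starts, and transcription starts were not measured here.

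The libraries held 12244373 to 38879965 counts, of which 2217409 to 14074075 lay outside 37 mitochondrially encoded genes and 5 abundant loci (Rn18s-rs5, Mir6236, AY036118 and a pair of unnamed gene models). Shares below refer to these remaining counts, and CPM to counts normalised for depth with factors from the trimmed mean of M values (TMM). Sprr1a itself had 1452 to 6903 counts in the GFP+ and 10 to 406 in the GFP- libraries, which matches the sort. All 11 cardiomyocyte markers (such as Myh6, Tnnt2 and Ttn) were detected in all 10 libraries, with 1.81 to 16.1% of counts in the GFP- and 4.73 to 14.1% in the GFP+ group. The GFP- library of mouse 21A7 stood apart. It had the lowest cardiomyocyte share, 1.81%, and the highest share of 10 fibroblast markers (such as Col1a1, Dcn and Postn), 7.0%. The fibroblast share was 0.0501 and 0.112% in the GFP- libraries of 17C1 and 17C2, 2.92 and 4.94% in those of 21A4 and 21A5, and 0.119, 0.126, 0.838, 0.650 and 2.89% in the GFP+ libraries in the order 17C1, 17C2, 21A4, 21A5 and 21A7, which is kept below. No fibroblast marker was at 0 in the GFP- libraries of the 21A mice, and the 10 macrophage markers took 0.00733 to 0.320% of GFP- and 0.00763 to 0.143% of GFP+ counts. The lymphocyte markers Cd3e and Ms4a1 were at 0 in every library. Markers of mesothelium, the outer lining of the heart, were higher in GFP+ cells, at 0.0270 to 0.151% against 0.00022 to 0.0696%. In pooled cells, fewer cells of a type and less RNA per cell cannot be told apart.

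In the 17C mice the muscle paralog Rpl3l fell and Rpl3 rose in GFP+ cells. The 21A mice had smaller differences, and 1 of them, 21A7, had more Rpl3l in GFP+ cells. Rpl3l had 2042, 1272, 2653, 1360 and 212 counts in the GFP- libraries and 37, 164, 255, 277 and 115 in the GFP+ libraries. As CPM these were 122, 100, 50.6, 30.1 and 3.83 in GFP- and 4.02, 15.6, 20.2, 12.7 and 12.3 in GFP+ cells. Rpl3l was thus lower in GFP+ cells of 4 mice and higher in 21A7, and the groups overlapped only through the GFP- library of 21A7. Rpl3, the form of most other cells, had 71.5, 51.8, 84.3, 102 and 148 CPM in GFP- and 150, 145, 108, 124 and 166 CPM in GFP+ cells. Its level was higher in GFP+ cells of all 5 mice on this scale, with overlapping groups.

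**Figure D1:**
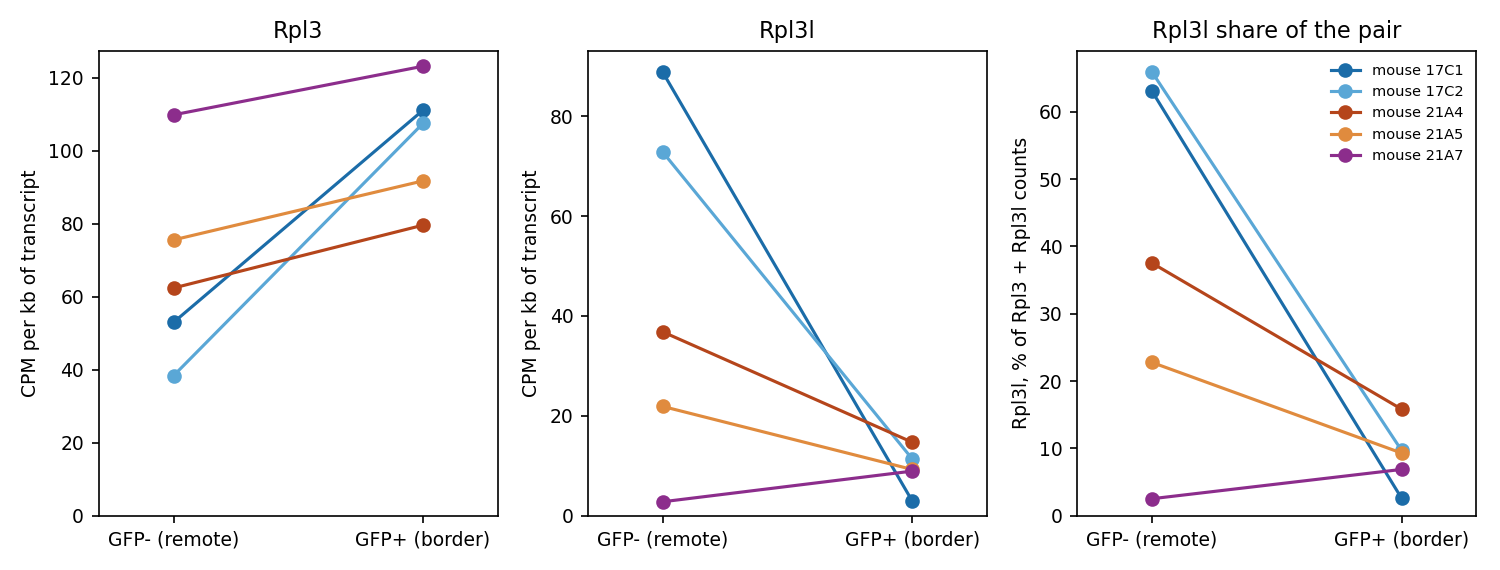
Levels of Rpl3 and Rpl3l in CPM per kilobase of transcript, and Rpl3l as a percent of the counts of both genes, in the GFP- and GFP+ library of each of 5 mice, each mouse joined by a line. Rpl3l was 63.1 and 65.9% of the pair in GFP- and 2.61 and 9.71% in GFP+ cells of the 17C mice, and was higher in GFP+ cells of mouse 21A7 alone, at 6.87 against 2.52%.

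Per kilobase of transcript, which allows the genes to be compared with each other, the level of Rpl3l was 88.8, 72.8, 36.8, 21.9 and 2.79 CPM in GFP- and 2.93, 11.4, 14.7, 9.25 and 8.93 CPM in GFP+ cells. That of Rpl3 was 53.0, 38.3, 62.4, 75.6 and 109.8 CPM in GFP- and 111.1, 107.5, 79.6, 91.7 and 123.1 CPM in GFP+ cells. Rpl3l was the more abundant of the pair in the GFP- cells of 17C1 and 17C2 and in no other library. Its share of the pair in GFP- cells was 63.1% in 17C1 (Wilson 95% interval 61.4 to 64.7, counting error only), followed by 65.9%, 37.5% and 22.8%, and it ended at 2.52% in 21A7 (2.20 to 2.87). In GFP+ cells it was 2.61% (1.90 to 3.58), 9.71%, 15.8%, 9.31% and 6.87% (5.75 to 8.18). The GFP- shares fell in the reverse order of the fibroblast shares within the 21A mice, and the part of other cells in this was not tested.

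Across all 5 mice neither gene passed the test. With mouse as the blocking factor (edgeR quasi-likelihood F-test, Benjamini-Hochberg adjusted p under 0.05), the log2 fold change of GFP+ over GFP- was −1.70 ± 0.82 (SE) for Rpl3l (adjusted p = 0.376) and 0.67 ± 0.27 for Rpl3 (adjusted p = 0.296), each from 5 pairs. The within-library log2 ratio of Rpl3l to Rpl3, which needs no scaling, differed by −5.95, −4.16, −1.67, −1.52 and 1.52 between the cells of a mouse. The mean was −2.36 ± 2.85 (SD, n = 5), with p = 0.1875 in the two-sided exact sign-flip test, whose smallest p with 5 mice is 0.0625. In the 17C mice alone Rpl3l fell by 3.70 ± 0.40 (SE) on the log2 scale (edgeR adjusted p = 1.18e-06) and Rpl3 rose by 1.29 ± 0.27 (adjusted p = 0.00191). In the 21A mice alone the edgeR values were −0.38 ± 0.53 for Rpl3l (adjusted p = 0.724) and 0.29 ± 0.23 for Rpl3 (adjusted p = 0.495). The test of the difference between the series gave 3.32 ± 0.94 for Rpl3l, with an edgeR adjusted p of 0.0605, and so did not pass.

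Single mice and settings moved these values. Rpl3l was −0.99 without mouse 17C1 and −2.43 without mouse 21A7 (edgeR adjusted p = 0.464 and 0.128). It passed, at −1.73 with an edgeR adjusted p of 6.83e-05, when low-count genes were kept in the fit. That fit called 458 of all 26141 genes lower and 360 higher. Scaled by library totals alone, which also brought the median of all tested genes to −1.15, the log2 fold change of Rpl3 turned to −0.40.

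The level of Rpl3l was also set against the adult sarcomere genes of the same library, a scale chosen after the values were seen, because it counts Rpl3l per unit of muscle RNA. Rpl3l had 236, 169, 133, 129 and 77.0 counts per 100000 sarcomere counts in GFP- cells and 15, 44.4, 38.5, 24.8 and 87.4 in GFP+ cells. It was 15.8, 3.81, 3.46 and 5.19 times lower in GFP+ cells of the first 4 mice. In mouse 21A7 the GFP- value was 0.881 times the GFP+ value. The Rpl3l groups still overlapped through mouse 21A7. Rpl3 had 138, 87.5, 222, 437 and 2981 counts per 100000 sarcomere counts in GFP- cells. In GFP+ cells it had 559, 413, 205, 242 and 1185. On this scale Rpl3 was thus higher in GFP+ cells of the 17C mice and lower in those of the 21A mice. The sarcomere genes differed between groups too, so this scale moves with the group. In the 17C mice 11 of 19 fell and 0 rose, where 7.52% of all tested genes fell and 6.08% rose (edgeR, paired). In the 21A mice 4 rose and 0 fell, where 2.67% of all tested genes rose and 4.05% fell.

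**Figure D2:**
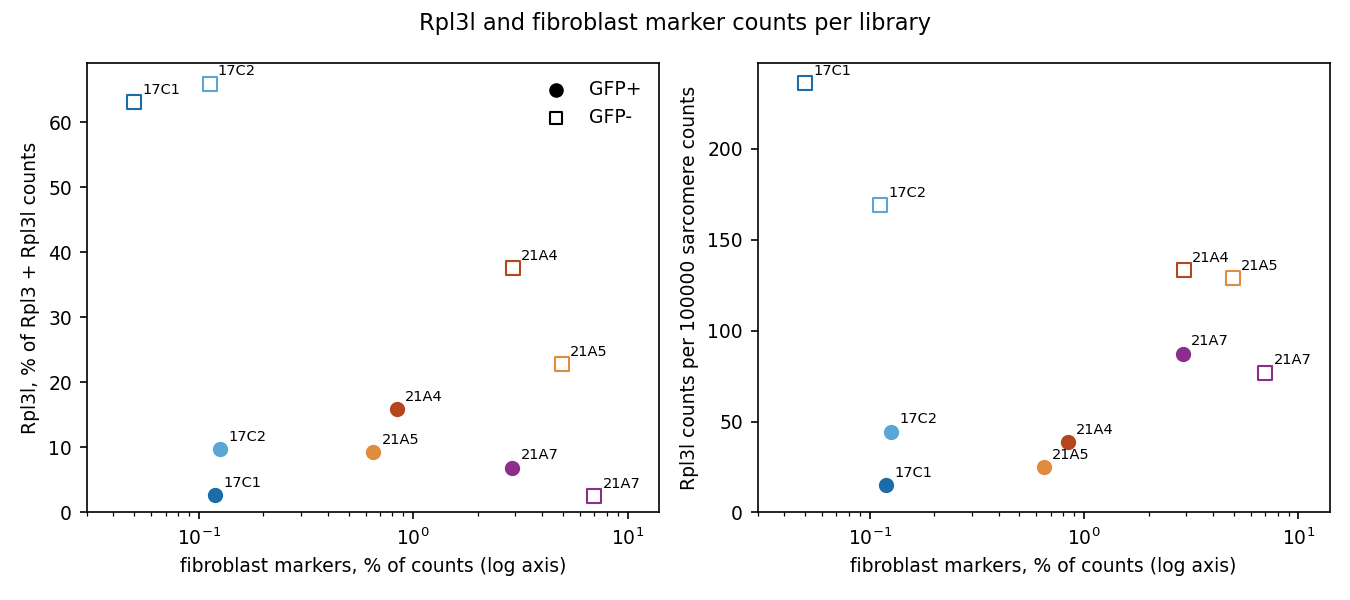
Rpl3l as a percent of the Rpl3 and Rpl3l counts (left) and per 100000 sarcomere counts (right) against the fibroblast marker share on a log axis, 1 point per library, filled for GFP+ and open for GFP-. The GFP- libraries lie between 65.9% (17C2) and 2.52% (21A7) on the left and between 236 (17C1) and 77.0 (21A7) on the right, with fibroblast shares from 0.0501% (17C1) to 7.0% (21A7).

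Most ribosomal protein genes, unlike Rpl3l, lay slightly above 0. In the fit over all 5 mice 71 of the 78 tested genes had a log2 fold change above 0, with a median of 0.40 against −0.04 for all 12115 tested genes. However, 0 of the 78 passed in either direction (edgeR, paired), where 0.685% of all tested genes were called higher and 0.173% lower. At an unadjusted p under 0.05, 20 of the 78 (25.6%) were higher and 0 lower, against 7.74 and 7.59% of all genes. That count of 20 was 11 without mouse 17C1, 6 without 17C2, 5 (of 77) without 21A4, 17 without 21A5 and 20 without 21A7. At that p, all genes had 928 of 12519, 695 of 12583, 578 of 11856, 670 of 11806 and 877 of 12077 higher. DESeq2 with the same block called 5 higher (Rpl10, Rpl15, Rpl38, Rps24 and Rps28) and 0 lower, where it called 3.75% of all genes higher and 3.64% lower, and limma voom called 0, with 2.04 and 1.63%. The unpaired edgeR fit also called 0 of the 78, and 0.0825% of all genes higher.

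Mouse by mouse, the log2 difference in CPM had a median over the 78 genes of 0.54, 0.68, 0.39, 0.07 and 0.23, where all tested genes had medians between −0.02 and 0.00. The number of these genes higher in GFP+ cells was 70, 73, 72, 51 and 64. The median was highest in 17C2 and nearest to 0 in 21A5. In all 5 mice 41 of the 78 (52.6%) were higher in GFP+ cells, against 9.14% of all tested genes. Only Rpl6l and Rps29 were lower in all 5, against 8.49%. Rpl10 and Rpsa were the only ribosomal protein genes whose GFP+ libraries all lay above all GFP- libraries (1.54% of all genes did), and Rpl6l the only one with all below (0.916%).

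**Figure D3:**
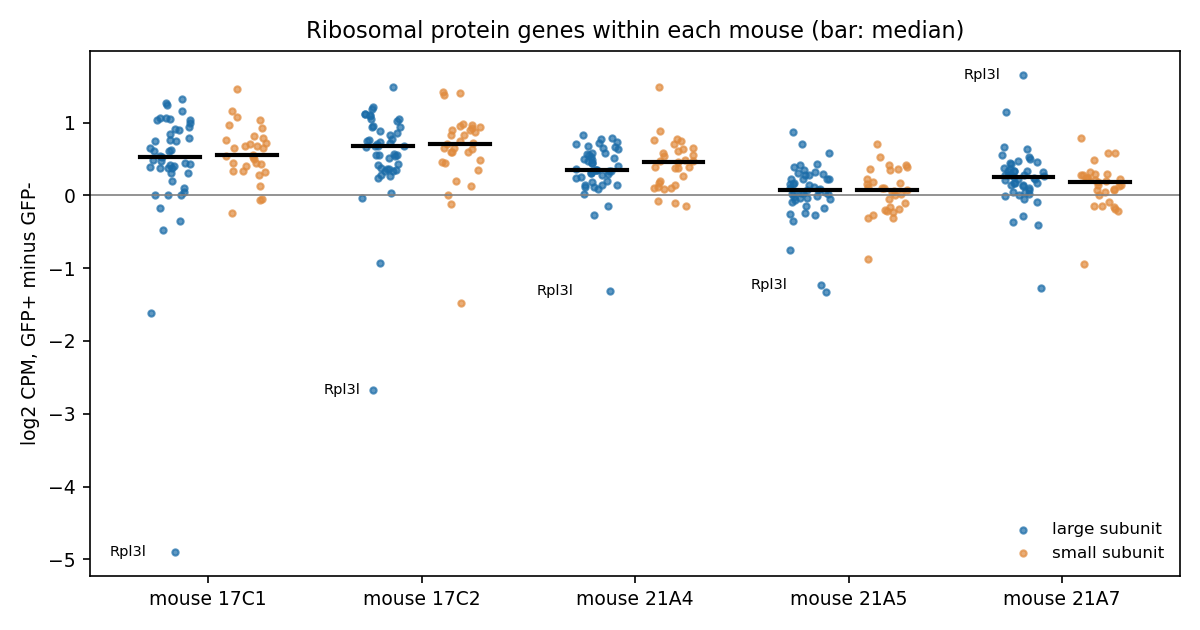
Difference in log2 CPM between the GFP+ and the GFP- library of each mouse for 78 ribosomal protein genes, large subunit in blue and small subunit in orange, with the medians as bars. The medians over both subunits go from 0.07 in mouse 21A5 to 0.68 in 17C2 under TMM scaling, and Rpl3l lies far below the rest in the 17C mice and above them in 21A7.

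The direction of the group as a whole depended on the scaling. Its place relative to all genes could not depend on it much, since a change of scaling moves all genes by nearly the same amount. With library totals alone 0 of the 78 genes lay above 0 and their median was −0.67, against −1.15 for all genes. Scaled to the sarcomere genes the median was 0.11, against −0.35. Relative to the median of all tested genes in the same fit, the ribosomal protein genes stood at 0.43, and between 0.32 (21A mice alone) and 0.67 (17C mice alone) in the 18 other settings. With a covariate made of the markers of 4 other cell types of the heart (fibroblasts, macrophages, endothelial and mural cells), their median was 0.59 against 0.02 for all genes, and 0 of all 12115 genes were called, these included.

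The share of counts taken by the 83 genes together was 2.71, 2.33, 1.87, 2.23 and 2.76% in GFP- cells and 4.65, 4.10, 2.18, 1.97 and 3.18% in GFP+ cells. The difference was 1.95 and 1.77 percentage points in the 17C mice and 0.313, −0.251 and 0.418 in the 21A mice. Its mean was 0.838 ± 0.966 (SD, n = 5), and 21A5 was the only mouse with a lower share in GFP+ cells. The libraries of 21A5 were also the only ones with counts of the Y-linked gene Ddx3y, 684 in GFP- and 372 in GFP+ cells. They had 0 counts of Xist. Whether this had a part in the difference was not tested. As a share of all counts, mitochondrial genes and abundant loci included, the mean difference was −0.427. Mitochondrially encoded genes took 9.20 to 61.9% of GFP- and 35.7 to 91.2% of GFP+ counts.

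The subunits had similar values. Large subunit genes had a median log2 fold change of 0.40, with 43 of 47 above 0, and small subunit genes 0.42, with 28 of 31 above 0. The log2 ratio of summed large to summed small subunit counts was 0.47, 0.52, 0.64, 0.61 and 0.66 in GFP- and 0.38, 0.44, 0.59, 0.66 and 0.71 in GFP+ cells. Within a mouse it differed by −0.088, −0.083, −0.053, 0.047 and 0.049, a mean of −0.026 ± 0.069 (SD, n = 5), so its sign differed between mice. The mice differed more from each other, with lower ratios in both cell types of the 17C series. Computed as the difference between the median log2 CPM of the subunits, the change was −0.116.

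**Figure D4:**
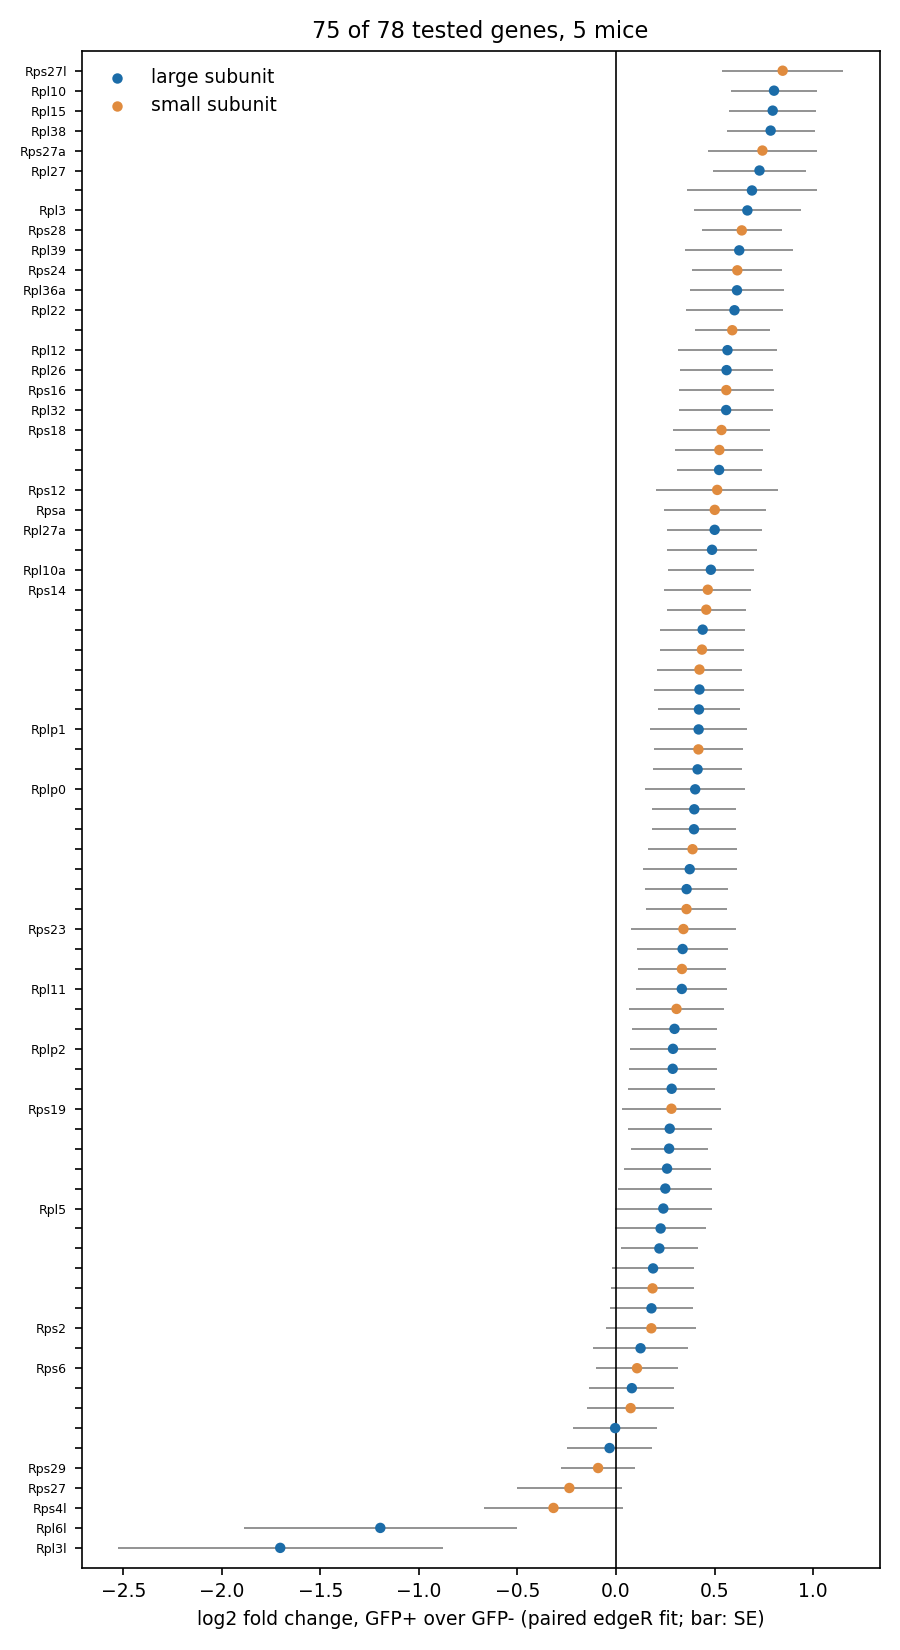
Log2 fold change of GFP+ over GFP- with its standard error for 75 of the 78 tested genes, from the paired edgeR fit on 5 mice with TMM scaling, ordered by value, large subunit in blue and small subunit in orange. Genes whose changes are described in the text are labelled, the subunits mix along the order, 68 of the 75 lie above 0 (0 with library totals alone), Rps27l is highest at 0.85 and Rpl3l lowest at −1.70.

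Among the genes with the highest fold changes, Rpl10, whose protein completes the large subunit late in its maturation, had 108, 91.3, 65.0, 82.8 and 79.2 CPM in GFP- and 224, 185, 115, 124 and 114 CPM in GFP+ cells. Its groups did not overlap. The log2 fold change was 0.80 ± 0.22 (SE, 5 pairs), with an adjusted p of 0.146 in edgeR and 0.00559 in DESeq2. Rpl15, a core large subunit protein mutated in some cases of Diamond-Blackfan anaemia, had 38.2, 28.7, 21.4, 23.0 and 24.3 CPM in GFP- and 91.7, 62.3, 32, 29.2 and 38.4 CPM in GFP+ cells. It was higher in all 5 mice, with overlap between groups (0.80 ± 0.22, edgeR adjusted p = 0.149). Rpl38, a large subunit protein known for its part in translating Hox mRNAs, had 41.6, 42.1, 22.4, 22.8 and 25.8 CPM in GFP- and 78.2, 97.5, 38.9, 41.7 and 28.1 CPM in GFP+ cells (0.78 ± 0.22, edgeR adjusted p = 0.158). Its gap was narrowest in 21A7.

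Rps27a encodes a small subunit protein fused to ubiquitin. It had 69.0, 54.9, 42.3, 53.1 and 54.0 CPM in GFP- and 190, 143, 58.7, 60.3 and 63.2 CPM in GFP+ cells. It was higher in all 5 mice, with overlap between groups. Its log2 fold change was 0.74 ± 0.28 over all mice (edgeR adjusted p = 0.258), 1.43 in the 17C mice, where it rose (adjusted p = 0.000607), and 0.31 in the 21A mice (adjusted p = 0.405). The difference between the series, −1.13, did not pass (edgeR adjusted p = 0.0572).

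Rpsa, Rplp0, Rplp1 and Rps2, which were among the most abundant ribosomal protein genes by mean CPM, were not those with the largest differences. Rpsa, a small subunit protein also known as the laminin receptor, had 417, 330, 275, 331 and 408 CPM in GFP- and 521, 617, 434, 421 and 496 CPM in GFP+ cells, without overlap (0.50 ± 0.26, edgeR adjusted p = 0.410). Rplp0, Rplp1 and Rplp2 build the stalk that recruits elongation factors, and all 3 were higher in GFP+ cells of 5 of 5 mice on the TMM scale. Rplp0 had 529, 480, 240, 287 and 320 CPM in GFP- and 566, 605, 394, 377 and 442 CPM in GFP+ cells, with overlap, and a log2 fold change of 0.40. Rplp1 stood at 0.42 and Rplp2 at 0.29, and the edgeR adjusted p of the 3 genes was 0.469 to 0.591. Rps2, next to the mRNA entry of the small subunit, was at 0.18 (edgeR adjusted p = 0.772).

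Rpl5 and Rpl11 form a particle with 5S ribosomal RNA that also binds Mdm2 and so stabilises p53. Rpl5 had 120, 86.5, 78.8, 91.0 and 114 CPM in GFP- and 185, 145, 71.1, 76.7 and 133 CPM in GFP+ cells, higher in 3 mice. Rpl11 had 71.4, 60.8, 52.0, 52.2 and 62.3 CPM in GFP- and 120, 108, 56.1, 51.7 and 62.5 CPM in GFP+ cells. Within the 17C series Rpl11 rose (0.80, edgeR adjusted p = 0.0440) and Rpl5 was at 0.69 (adjusted p = 0.0838), and the difference between the series passed for neither (edgeR adjusted p = 0.157 and 0.197). Over all mice they were at 0.33 and 0.24 (edgeR adjusted p = 0.547 and 0.704). Rps6, the small subunit protein that S6 kinase phosphorylates, was nearly level: it had 111, 106, 79.8, 89.0 and 106 CPM in GFP- and 140, 122, 91.4, 77.2 and 107 CPM in GFP+ cells, a log2 fold change of 0.11 ± 0.21 (edgeR adjusted p = 0.859). The measurements are of its mRNA, and phosphorylation was not measured.

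Of 18 genes mutated in Diamond-Blackfan anaemia, a red cell disorder of faulty ribosome production, 17 were tested, 0 passed and 15 lay above 0, with a median of 0.40 as in the whole set. Of the 17, 5 rose in the 17C mice (Rpl11, Rpl15, Rpl26, Rpl27 and Rps19), where 23 of all 77 ribosomal protein genes and 6.08% of all tested genes did. Rps27 and Rps29, small zinc-binding proteins of the small subunit, were the exceptions below 0. Rps27 had 56.5, 44.4, 22.2, 28.5 and 22.8 CPM in GFP- and 76.2, 44.6, 25, 15.5 and 11.8 CPM in GFP+ cells, with a log2 fold change of −0.24 ± 0.27 (edgeR adjusted p = 0.739). It was higher in 3 mice and lower in 21A5 and 21A7. Rps29 was lower in GFP+ cells of all 5 mice by little, with a log2 fold change of −0.09 ± 0.19 (edgeR adjusted p = 0.864).

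The symbols of 7 of the 83 genes end in l, and 4 of these were tested: Rpl3l, Rps27l, Rps4l and Rpl6l. Rps27l, a paralog of Rps27 that p53 can induce, had 11.5, 6.22, 2.35, 3.45 and 6.34 CPM in GFP- and 18.1, 16.6, 6.74, 5.69 and 5.98 CPM in GFP+ cells. It was higher in 4 of 5 mice, with the highest fold change of the set, 0.85 ± 0.31 (edgeR adjusted p = 0.249). Its log2 ratio to Rps27 was higher in GFP+ cells of all 5 mice, by 0.22, 1.40, 1.36, 1.60 and 0.87. The mean was 1.09 ± 0.55 (SD, n = 5), and the exact sign-flip p was 0.0625, the smallest that 5 mice can give. Adjusted over the 4 pairs of paralogs tested this way, p was 0.25 for Rps27l to Rps27, for Rpl3l to Rpl3 and for Rpl7l1 to Rpl7 (mean −0.40), and 0.8125 for Rpl22l1 to Rpl22 (mean 0.046). The coding sequences of Rps27l and Rps27 were 76.1% identical, and the longest run shared by their transcripts was 11 bases. Rps4l, at 5.26, 6.22, 3.87, 6.66 and 6.07 CPM in GFP- and 4.46, 2.19, 4.12, 7.16 and 5.44 CPM in GFP+ cells, did not differ beyond its error (−0.32 ± 0.35, edgeR adjusted p = 0.731).

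Rpl6l is uncertain. GENCODE M21 lists it as a processed pseudogene, and it shares a run of 354 bases with Rpl6, so the counting could split reads between them. It had 0.837, 1.34, 0.973, 1.04 and 0.886 CPM in GFP- and 0.217, 0.667, 0.793, 0.367 and 0.320 CPM in GFP+ cells (−1.20 ± 0.69, edgeR adjusted p = 0.466). Its highest count was 51. Over the whole set, rows named as pseudogenes of these genes would add only 0.390 to 0.502% to the counts.

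In the 17C mice alone, 23 of 77 tested ribosomal protein genes rose (29.9%), where 6.08% of all genes did, and 1 fell, Rpl3l, where 7.52% did (edgeR, paired). At an unadjusted p under 0.05, 47 were higher and 1 lower, against 12 and 13.3% of all genes. Their median log2 fold change was 0.66 against −0.01. The 23 were 14 of 46 large subunit genes, Rpl3, Rpl10, Rpl10a, Rpl11, Rpl12, Rpl15, Rpl22, Rpl26, Rpl27, Rpl27a, Rpl32, Rpl36a, Rpl38 and Rpl39, and 9 of 31 small subunit genes, among them Rps12, Rps14, Rps16, Rps18, Rps19, Rps23 and Rps27a. Their log2 fold changes went from 0.79 for Rpl26 to 1.43 for Rps27a. Rpl39, at the polypeptide exit tunnel, rose by 1.23 (edgeR adjusted p = 0.00316), and Rpl22, whose loss impairs T cell development, by 1.13 (adjusted p = 0.00477). These calls rest on 2 mice. In the same fit all 6 mesothelial markers rose, with a median of 4.96, 8 of 11 cardiomyocyte markers fell, with a median over the 11 of −1.32, and 3 of 8 tested fibroblast markers rose. Their part in the result was not tested.

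In the 21A mice alone 0 of the 78 passed in either direction, where 2.67% of all genes were called higher and 4.05% lower (edgeR, paired), and 9 were higher and 0 lower at an unadjusted p under 0.05, against 10.3 and 13.9%. Their median was 0.26 against −0.06, and 68 lay above 0. The test of the difference between the series called 1 of the 78, Rps12 (1.28%), where it called 7.62% of all genes. At an unadjusted p under 0.05 it found 14 (17.9%), against 25.7%. The fold change was smaller in the 21A mice for 65 of the 78. The median difference between the series was −0.39 for the 78, against 0.007 for all tested genes. Rps12, a protein in the beak of the small subunit, had 77.2, 59.8, 46.7, 61.4 and 63.9 CPM in GFP- and 173, 161, 61.4, 52.5 and 56.2 CPM in GFP+ cells. It rose by 1.31 on the log2 scale in the 17C mice (edgeR adjusted p = 0.00154) and was at 0.01 in the 21A mice. The difference of −1.30 ± 0.34 had an edgeR adjusted p of 0.0491. The series also differed in the fibroblast share, which was higher in GFP- than in GFP+ cells in all 21A mice and lower in both 17C mice. The part of this in the difference was not tested.

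**Figure D5:**
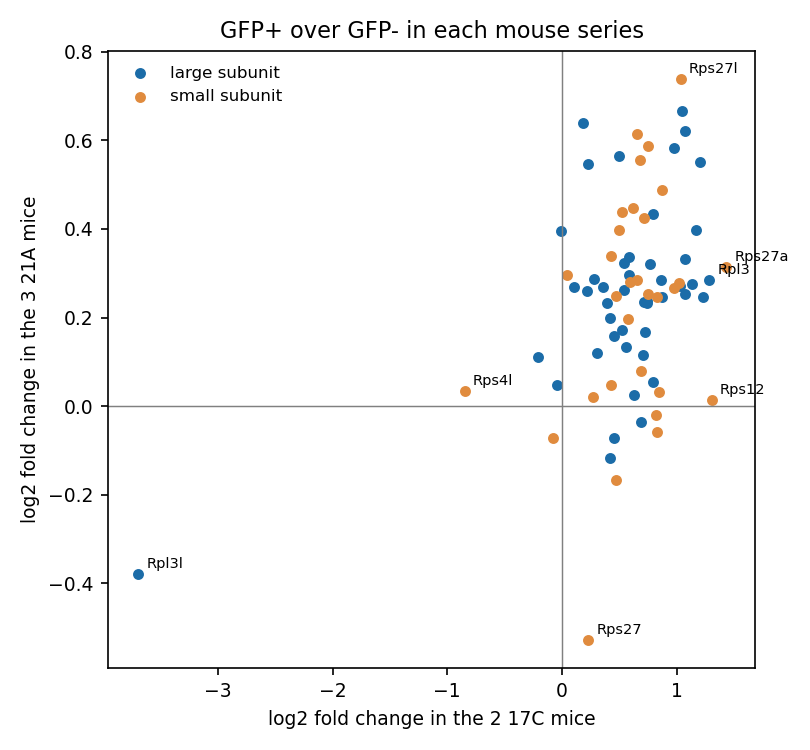
Log2 fold change of GFP+ over GFP- in the 3 mice of the 21A series against that in the 2 mice of the 17C series, 1 point per ribosomal protein gene, from paired edgeR fits with TMM scaling and with different ranges on the axes. Most points lie right of 0 and nearer to 0 on the vertical axis, with medians of 0.66 and 0.26, and Rpl3l lies at −3.70 and −0.38.

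With every library scaled to the sum of the ribosomal protein genes, the edgeR fit compares each with the rest of the set. Of the 78, 0 passed and the median was 0.011, where 0.289% of all tested genes were called higher and 0.702% lower. At an unadjusted p under 0.05, 2 of the 78 were lower and 0 higher. These were Rpl3l (−2.09) and Rps27 (−0.62), with edgeR adjusted p of 0.216 and 0.206. Of all 12115 tested genes 2278 were lower and 314 higher at that unadjusted p, a larger share in both directions.

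The lists of genes around the ribosome were fixed with earlier results of these data known, and are given by count and median. Of 11 ribosome components that the symbol rule leaves out, 7 were tested, 0 passed over all mice and all 7 lay above 0, with a median of 0.28. Rack1, the scaffold on the head of the small subunit, rose in the 17C mice by 1.0 (edgeR adjusted p = 0.0125) and Fau, a small subunit protein fused to a ubiquitin-like one, by 0.83 (adjusted p = 0.0355).

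The 78 mitochondrial ribosomal protein genes, which serve the ribosome inside mitochondria, lay nearer to 0 as a group. Of 77 tested, 51 lay above 0, 0 passed, and the median was 0.08 (edgeR, paired). Their median was −0.36 in the 17C series, where 1 gene rose and 2 fell, against 6.08 and 7.52% of all tested genes. In the 21A series it was 0.42, where 1 rose and 0 fell, against 2.67 and 4.05%. The cytosolic genes had the reverse order, 0.66 and 0.26. The gene with the smallest adjusted p, Mrps14 of the small mitochondrial subunit, was at 0.89 (edgeR adjusted p = 0.0928).

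Of 21 genes listed as translation elongation and TOP-type factors, 0 passed over all mice, 15 lay above 0 and the median was 0.20. Btf3, a factor at the exit tunnel, was at 0.63 and Eif3h, a subunit of initiation factor eIF3, at 0.72 (edgeR adjusted p = 0.193 and 0.206). Eef1a1 and Eef1a2 are paralogs of the elongation factor that brings tRNA to the ribosome, Eef1a2 being the form of mature muscle and neurons, and so offer the same kind of comparison as Rpl3 and Rpl3l. The pair was chosen after its values were seen. Eef1a2 made up 88.7, 88.8, 56.9, 36.5 and 7.40% of the pair in GFP- and 21.1, 40.02, 58.1, 60.4 and 21.1% in GFP+ cells. In the 17C mice Eef1a1 rose by 2.82 (edgeR adjusted p = 3.14e-07) and Eef1a2 fell by 1.41 (adjusted p = 0.00259). In the 21A mice they were at 0.24 and 1.31 (adjusted p = 0.693 and 0.0526), and the difference between the series passed for both (edgeR adjusted p = 0.0201 and 0.0278). Unlike the share of Rpl3l, that of Eef1a2 was higher in GFP+ cells of all 3 21A mice.

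The 34 initiation factors had 0 called over all mice and a median of 0.15. Of the 34, 5 rose and 3 fell in the 17C mice, where 6.08% of all genes rose and 7.52% fell. Eif4ebp2, a repressor of cap-dependent initiation, was at −0.89 and its relative Eif4ebp1 at 0.80 (edgeR adjusted p = 0.135 and 0.142). Eif4ebp2 fell by 1.29 in the 17C mice (edgeR adjusted p = 0.0240) and Eif4ebp1 rose by 1.02 in the 21A mice (adjusted p = 0.0289). Eif6, which keeps the subunits apart, was at 0.92 (adjusted p = 0.164) and rose in the 17C mice by 1.55 (adjusted p = 0.00494). The 27 genes of mTORC1, S6 kinase and TOP control had 0 called and a median of −0.11. Lamtor3 and Lamtor1, lysosomal anchors of mTORC1, were at 0.71 and 0.53, and Deptor, its inhibitor, at −1.87 (edgeR adjusted p = 0.173 to 0.281). Of these 27, 0 rose in the 17C mice and 3 fell, Mtor (−1.17), Tsc2 (−0.91) and Sesn1 (−1.0), where 6.08% of all genes rose and 7.52% fell.

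The 65 genes of ribosome assembly and ribosomal RNA synthesis also had 0 called, with 39 above 0 and a median of 0.11. Nolc1, a nucleolar chaperone, was at −1.18 (edgeR adjusted p = 0.107), Polr1d, a subunit of RNA polymerases I and III, at 0.82 (0.118) and Gtpbp4, a nucleolar GTPase of large subunit assembly, at 0.75 (0.135). Against the same shares of all genes, 0 of the 65 rose in the 17C mice and 3 fell: Nolc1 (−1.86), Polr1a (−1.55), the largest subunit of RNA polymerase I, and Ubtf (−1.28), its upstream binding factor.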

How the data were processed

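RNA of sorted cells was amplified with the SMARTer Ultra Low Input v4 kit and made into Nextera XT libraries, per the labels' protocols, without strand information or molecular identifiers. Per the submitters' processing notes, the authors used fastp 0.23.1, STAR 2.7.9a, Subread 2.0.1 with featureCounts, and GRCm39. The annotation release is not given in the sources used here, nor is the handling of multi-mapped reads. The authors deposited raw counts per gene for 10 libraries, 5 per group.

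The ribosomal protein genes, lists and tests were chosen with earlier results of these data known. The two-sided quasi-likelihood test of edgeR 4.0.16 (R 4.3.3) was run on the counts with TMM factors, the mouse as a block and a Benjamini-Hochberg adjusted p under 0.05, on the 12115 genes that filterByExpr kept. Both libraries of an identifier come from 1 animal. Their deviations from the group means correlated across genes with r = 0.292, 0.397, 0.161, 0.0741 and 0.637 (17C1, 17C2, 21A4, 21A5, 21A7). These values do not test the pairing, because the deviations keep the difference between the series and libraries of different mice were not compared. A standard error is the fold change on the log2 scale over the root of F. Log2 CPM used a prior count of 2 and paralog ratios a prior count of 1. The script was tested on simulated data. Total counts of 12244373 to 38879965 set the precision.

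Named genes were the 5 highest and 5 lowest fold changes, the 5 most abundant, those ending in l, the role genes, those called by the series test, and up to 3 per list with the smallest adjusted p. Some of these genes are not reported here. Genes called in 1 series and the pairs with Eef1a2, Rpl6l and Rps4l were added after the values were seen. Alternatives were DESeq2 1.42.0, limma 3.58.1 voom, other scalings and filters, a marker score in the model, leaving out each mouse, and either series alone. Coordinates are of GRCm38, since a GRCm39 genome was not used here.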

Additional observations from a re-analysis of the deposited data

Results flagged for a closer look

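Rps12 was the only ribosomal protein gene for which the difference between GFP+ and GFP- cells itself differed between the mouse series at an adjusted p under 0.05. Its log2 fold change was 1.31 in the 17C mice and 0.01 in the 21A mice, a difference of −1.30 with an adjusted p of 0.0491 in edgeR's quasi-likelihood test. That lies close to the threshold, and 7.62% of all tested genes were called by the same test. In the GFP+ libraries Rps12 had 173 and 161 CPM in the 17C mice and 61.4, 52.5 and 56.2 CPM in the 21A mice. The GFP- libraries lay between 46.7 and 77.2 CPM in both series. Dixon's criterion for a single sample far from the other 4 of its group was applied to 46 combinations of group and measure (levels of the named genes, the share of the set, the subunit ratio and the ratio of Rpl3l to Rpl3) and marked 0. Marker shares were not among these measures. The GFP- library of mouse 21A7, which had the lowest cardiomyocyte and highest fibroblast share, had the lowest ratio of Rpl3l to Rpl3 in its group but did not pass this criterion for it.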

How the results depend on the processing

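Calls among the ribosomal protein genes changed with few settings. The number called higher, 0 in the paired edgeR fit, was 5 with DESeq2 and 23 in the 17C mice alone. The number called lower was 1 without a filter on low counts and 1 in the 17C mice alone, Rpl3l in both, at −1.73 and −3.70. Of all genes these fits called 458 of 26141 and 835 of 11107 lower. Rpl3 passed in the 17C mice alone, at 1.29. Without the replicate block the unpaired edgeR fit called 0 in either direction, where it called 0.0825% of all genes higher and 0 lower, with a median of 0.44, and gave −2.24 for Rpl3l and 0.60 for Rpl3. For Rps27l to Rps27 the unpaired exact permutation p of the same difference, 1.09, was 0.0238.

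The median log2 fold change was −0.67 with library totals alone, 0.11 scaled to sarcomere genes, 0.011 scaled to the summed ribosomal protein genes and 0.66 in the 17C mice. The mean difference in share was −0.427 percentage points of all counts and 1.86 in the 17C mice, and the large to small subunit difference −0.116 by medians. Leaving out each mouse in turn gave −2.43 to −0.99 for Rpl3l.

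Directions of single genes turned mainly with the scaling. Library totals alone gave −0.40 for Rpl3, −0.11 for Rps27l, −0.25 for Rpl10, −0.30 for Rpl15, −0.22 for Rpl38, −0.33 for Rps27a, −0.56 for Rpsa, −0.67 for Rplp0, −0.62 for Rplp1, −0.77 for Rplp2, −0.89 for Rps2, −0.87 for Rpl5, −0.73 for Rpl11, −0.97 for Rps6 and −0.55 for Rps12. Sarcomere scaling gave −0.096 for Rps2, −0.067 for Rpl5 and −0.18 for Rps6. Scaling to the summed genes gave −0.20 for Rps2, −0.096 for Rplp2, −0.14 for Rpl5, −0.050 for Rpl11 and −0.28 for Rps6. Rps27 was 0.080 with the marker score and 0.23 in the 17C mice. In the 21A mice Rps4l was 0.034, Rpl5 −0.036 and the ratio of Rpl22l1 to Rpl22 −0.33. Leaving out each mouse moved that ratio between −0.20 (without 17C1) and 0.38 (without 21A5), with −0.0086 without 21A4. The cause of these changes was not tested beyond the scalings themselves. Counts limit Rpl6l, Rps4l and Rps27l, and leaving out a 17C mouse within its own series leaves no replicate. The ratios with Rpl39l, Rpl10l and Rpl36al were not tested because their counts were too low.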
